A study of Mus musculus with 18 samples.

Results

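The genes described here carry fast and slow inhibitory signalling by GABA and glycine. The group holds 28 mouse genes: 12 subunits of the GABA-A receptor, both subunits of the GABA-B receptor, 4 subunits of the glycine receptor, the scaffold gephyrin, 4 genes for making, packing and breaking down GABA, 3 membrane transporters of GABA or glycine, and 2 chloride cotransporters. They were chosen by name, with earlier results of these data known, and matched by symbol to the deposited counts. All 28 were found among 55416 gene IDs, and 26 of them had enough reads to be tested, among 17174 genes tested in all. Gabra6 and Slc6a5 were the 2 left out of the tests.

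RNA-seq was made from the brain tissue bordering metastases, cut out of 18 mice, in 3 models with 6 brains each. Melanoma brains carried B16-F10-BrM4 cells (replicates 1 to 6), lung brains carried 482N1 lung cancer cells (replicates 7 to 11 and 13) and breast brains carried EO771-BrM3 breast cancer cells (replicates 14 to 19). Every mouse was labelled WT and was killed 10 days after injection of 40000 cells. No strain, age or route of injection was found in the labels. Each model rests on 1 tumour cell line, and the comparisons are between models, with no tumour-free brain among the samples analysed. A difference below is therefore a difference between 2 kinds of metastasis-bearing brain and not a departure from healthy tissue.

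GABA is made from glutamate by glutamate decarboxylases, loaded into vesicles by the vesicular inhibitory amino acid transporter, and cleared after release by membrane transporters on neurons and glia. GABA-A and glycine receptors are chloride channels assembled from subunits, held at the synapse by gephyrin, while GABA-B receptors act through G proteins. The direction of the chloride current depends on cotransporters that load chloride into the cell (Slc12a2, known as NKCC1) or extrude it (Slc12a5, known as KCC2).

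The libraries held 7366250 to 14533877 counts, so that 3 reads in a library correspond to 0.206 to 0.407 CPM (counts scaled to the library total), taken here as the limit of detection. Summed neuron markers lay at 5849 to 10575 CPM in melanoma, 7017 to 9118 in lung and 5079 to 7366 in breast, with 14 of 15 markers read in each model and Tubb3 at 0. Tumour markers followed the labels. The 10 melanocyte markers summed to 3904 to 24214 CPM in melanoma against at most 21.7 elsewhere, and the 8 epithelial markers to 309 to 1318 CPM in lung against 66.3 to 167 in breast and at most 5.86 in melanoma. Melanoma replicate 3 and breast replicates 18 and 19 stood apart by low levels of long transcripts: the slope of a library's log2 CPM deviation on log2 exon length was -0.192, -0.232 and -0.188 in them and -0.107 to 0.162 in the other 15. In tissue of this kind, fewer cells of a type and less RNA per cell cannot be told apart.

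Measured per kilobase of exon (RPKM, which is CPM divided by the exon length in kilobases; mean of the 3 models), the levels ran from 72.6 for Gabbr1 down to 0.00993 for Gabra6. Slc12a5 at 49.2 RPKM, Glrb at 47.9, Slc32a1 at 40.6, Gad1 at 36.9 and Abat at 36.6 came next. Glrb was thus the most abundant receptor subunit of the ligand-gated channels in the group, and it stood above its partner subunits Glra2 (6.72 RPKM), Glra3 (1.58) and Glra1 (0.627). Among GABA-A subunits Gabra3 (25.6 RPKM), Gabrd (19.8), Gabra4 (18.2), Gabra5 (17.8), Gabra2 (12.6) and Gabrb2 (11.1) led, and the means of Gabrd, Gabra4 and Gabra5 were closer to each other than the SD of 6 libraries in melanoma. Gabrb1 (5.40) and Gabrg1 (4.95) were intermediate, and Gabrq (1.49), Gabrg3 (1.27) and Gabre (1.14) were low.

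**Figure D1:**
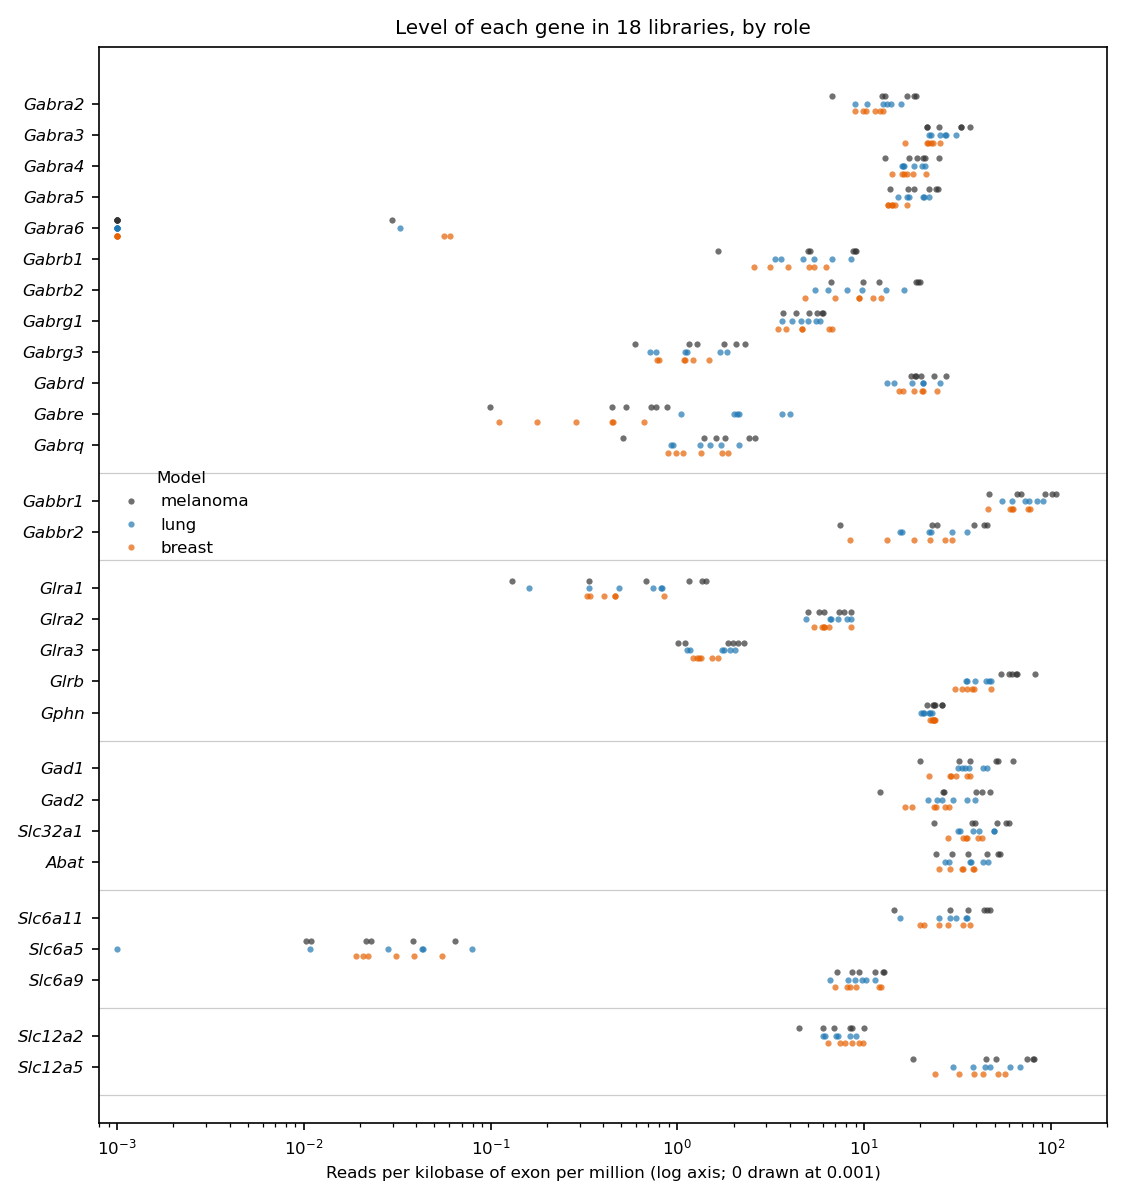
Level of each gene in RPKM (log axis) in the 18 libraries, one point per library, coloured by model and arranged from GABA-A subunits at the top to chloride cotransporters at the bottom; genes with no read sit at the left edge. The models overlap for most genes, while Gabre is higher in the 6 lung libraries and Glrb in the 6 melanoma libraries.

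Few of these genes differed between the models. Glrb, the glycine receptor beta subunit that binds gephyrin, was higher in melanoma than in both other models. Gabre, the GABA-A epsilon subunit, was lower in melanoma and in breast than in lung. Gabra5, the alpha5 subunit of mostly extrasynaptic GABA-A receptors, was higher in melanoma than in breast. Tests were edgeR's quasi-likelihood test over all 18 libraries with Benjamini-Hochberg adjustment over all 17174 genes, called at an adjusted p under 0.05; nothing in the labels ties samples beyond 1 brain each, so the p-values measure the spread between brains.

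Between melanoma and lung, 1 of the 26 genes was higher in melanoma (Glrb) and 1 lower (Gabre). Of all genes tested 8.51% were higher and 14.7% lower, 23.2% together. Between breast and lung, 0 were higher and 1 was lower (Gabre), against 11.2% higher, 7.16% lower and 18.3% together of all genes. At an unadjusted p under 0.05, 2 of the 26 passed there, Gabre and Gabra5, both lower in breast, and DESeq2 also called 0 higher in breast, where it called 12.8% of all genes. Between melanoma and breast, 2 were higher in melanoma (Glrb and Gabra5) and 0 lower, against 9.76% higher, 19.2% lower and 28.9% together of all genes. At an unadjusted p under 0.05, 5 of the 26 passed there, all higher in melanoma, and DESeq2 also called 0 lower, where it called 18.8% of all genes. No share of all genes at an unadjusted p was computed, so the counts at that threshold have no background beside them. Over the 3 models together 3 of 26 differed, against 35.8% of all genes. In the edgeR test described above, with all 18 libraries, the share of these genes called lay below the background in every comparison. This did not hold in every other fit. For genes higher in melanoma than in breast, DESeq2 called 5 of the 26, where 14.3% of all genes were higher. A fit with 1 surrogate variable called 6, where 18.6% were, and library totals gave 3, where 10.2% were. The share was also above the background there without melanoma replicate 3, and without that library and breast replicates 18 and 19. Without melanoma replicate 3 it was above the background over the 3 models too.

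The comparison of melanoma with breast was the one most moved by a single library. With melanoma replicate 3 left out, 17 of the 26 genes were higher in melanoma than in breast, where 23.2% of all genes were, and 14 differed over the 3 models, where 50.3% did. The 17 were Glrb, Glra1, Gabra2, Gabra3, Gabra5, Gabrb1, Gabrb2, Gabrg3, Gabrq, Gabbr1, Gabbr2, Gad1, Gad2, Slc32a1, Abat, Slc6a11 and Slc12a5. With melanoma replicate 3 and breast replicates 18 and 19 left out together, 7 were higher in melanoma than in breast (Glrb, Gabra2, Gabra3, Gabra5, Glra3, Gad1 and Gad2), where 15% of all genes were. The counts of melanoma against lung moved less: without melanoma replicate 3 they stayed at 1 higher and 1 lower, where 10.1% of all genes were higher and 16.6% lower.

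The upstream sequences of the 3 genes that differed are shown because these genes set the models apart. They are the bases before the start of each gene in RefSeq (GRCm38.p6), all on the minus strand and printed 5′ to 3′, with capitals marking each match to GGGCGG on either strand, the core of the GC box. For Gabre the 82 bases nearest the RefSeq start were left out because another annotated transcript covers them. The windows are chr3:80913661-80913910 for Glrb, chrX:72274804-72274971 for Gabre and chr7:57510060-57510309 for Gabra5.
Glrb: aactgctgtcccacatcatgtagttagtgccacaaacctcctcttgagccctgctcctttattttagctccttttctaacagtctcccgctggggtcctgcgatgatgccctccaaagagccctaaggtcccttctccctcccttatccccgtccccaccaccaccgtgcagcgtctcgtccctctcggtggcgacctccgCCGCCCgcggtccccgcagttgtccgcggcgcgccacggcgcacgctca
Gabre: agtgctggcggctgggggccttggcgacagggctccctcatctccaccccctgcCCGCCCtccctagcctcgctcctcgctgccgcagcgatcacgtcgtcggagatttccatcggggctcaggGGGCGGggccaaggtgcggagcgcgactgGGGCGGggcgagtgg
Gabra5: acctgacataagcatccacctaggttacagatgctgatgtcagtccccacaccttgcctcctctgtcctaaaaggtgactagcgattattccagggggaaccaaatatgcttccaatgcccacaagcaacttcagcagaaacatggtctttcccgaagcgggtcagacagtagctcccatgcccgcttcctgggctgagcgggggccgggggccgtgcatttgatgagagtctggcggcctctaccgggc
Over the 250 bases before the start, Gabre held 3 matches to GGGCGG, Glrb 1 and Gabra5 0, and 32.7% of 32851 mouse promoters of that length held at least 1. GC content was 68.8% for Gabre, 62.4% for Glrb and 56.4% for Gabra5, against a median of 52.4% over those promoters. The number of CpG dinucleotides was 21, 20 and 9 in the same order, against a median of 6. Neither CATGTG, held by 12.3% of the promoters, nor TGANTCA, held by 6.75%, was found in the 3 windows on either strand.

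Glrb lay at 253 to 381 CPM in melanoma (median 296), at 164 to 222 CPM in lung (median 196) and at 142 to 222 CPM in breast (median 171). All 6 melanoma libraries were above all 12 others, and lung and breast overlapped. The mean was 301 ± 43.7 CPM (SD, n = 6) in melanoma, 193 ± 25.7 in lung and 174 ± 27.4 in breast. The log2 fold change was 0.64 ± 0.13 (SE) against lung, a 1.56-fold higher level (adjusted p = 7.15e-04, edgeR's quasi-likelihood test), and 0.79 ± 0.13 against breast, a 1.73-fold higher level (adjusted p = 6.36e-05). Non-overlap of this direction was seen in 4.69% of all genes against lung and 4.98% against breast. Between breast and lung the log2 fold change was -0.16 (adjusted p = 0.456). Against a change of 1.5-fold in place of no change, neither difference was called (adjusted p of 0.781 against lung and 0.112 against breast).

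Glrb and Gabrg1 departed from most of the genes across the melanoma brains. The highest Glrb value, 381 CPM, was in replicate 3, where 17 of the 26 genes had their lowest melanoma value, and its lowest, 253 CPM, was in replicate 1, where 8 of the 26 had theirs. Gabrg1 was likewise highest in replicate 3, at 47.2 CPM, and lowest in replicate 1, at 29.0 CPM. Melanocyte markers summed to 24214 CPM in replicate 3 and to 15946 CPM in replicate 1. In replicate 6, where that sum was lowest at 3904 CPM, Glrb was at 289.8 CPM, above the 222 CPM that was the highest value in lung or breast. Leaving out replicate 3 gave a log2 fold change of 0.57 against lung.

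Gabre, whose product joins some GABA-A receptors of the hypothalamus and brainstem, lay at 4.93 to 19.1 CPM in lung (median 10.0), at 0.470 to 4.17 CPM in melanoma (median 2.97) and at 0.524 to 3.14 CPM in breast (median 1.75). The 6 lung libraries were above all 12 others, and melanoma and breast overlapped. The mean was 11.8 ± 5.31 CPM (SD, n = 6) in lung, 2.72 ± 1.34 in melanoma and 1.69 ± 0.968 in breast. Melanoma was 4.35-fold lower than lung (log2 fold change -2.12 ± 0.42 SE, adjusted p = 7.91e-04, edgeR's quasi-likelihood test), and breast was 6.76-fold lower than lung (-2.76 ± 0.44, adjusted p = 1.42e-04). Non-overlap of this direction was seen in 9.63% of all genes for melanoma and 5.91% for breast. Melanoma and breast differed by a log2 fold change of 0.64 ± 0.46 (adjusted p = 0.310). The gene rests on few reads, 193 in the 6 melanoma libraries, 907 in lung and 119 in breast.

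Epithelial marker RNA was highest in the lung libraries, with lower sums in breast (66.3 to 167 CPM) than in lung and the lowest in melanoma (at most 5.86 CPM). All 5 epithelial markers tested were lower in melanoma than in lung, while 4 of 5 were lower in breast. Of these markers Cldn4 was unread in melanoma and breast. Within lung, Gabre was highest in replicate 10 at 19.1 CPM, where the epithelial sum was lowest at 309 CPM, and it was 9.83 CPM in replicate 9, where the sum was highest at 1318 CPM. Its lowest lung value, 4.93 CPM, was in replicate 11, with a sum of 686 CPM. The part of tumour RNA in the Gabre and Glrb differences was not tested.

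Gabra5 lay at 41.0 to 74.4 CPM in melanoma (median 60.9), at 45.3 to 66.5 CPM in lung (median 56.8) and at 39.7 to 50.6 CPM in breast (median 41.9). The melanoma and breast ranges overlapped through melanoma replicate 1 at 41.0 CPM and breast replicate 19 at 50.6 CPM. The mean was 60.0 ± 13.2 CPM (SD, n = 6) in melanoma, 56.3 ± 8.36 in lung and 42.9 ± 4.01 in breast. Melanoma was 1.40-fold higher than breast (log2 fold change 0.48 ± 0.14 SE, adjusted p = 0.0125, edgeR's quasi-likelihood test). Breast was lower than lung by a log2 fold change of -0.39 that did not pass (adjusted p = 0.0589), and melanoma and lung differed by 0.09 (adjusted p = 0.718). Gabra5 was called lower in breast than in lung with DESeq2, library totals, only the 12 libraries of both models, and 1 surrogate variable. It was also called with the length slope as a covariate, on recovered reads, and without the 3 libraries low in long transcripts. Leaving out some single libraries gave that call as well. Against a 1.5-fold change the melanoma difference was not called (adjusted p = 1.00). The test over the 3 models called Gabra5 (adjusted p = 0.0230) but not when breast replicate 14 or 16 was left out.

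**Figure D2:**
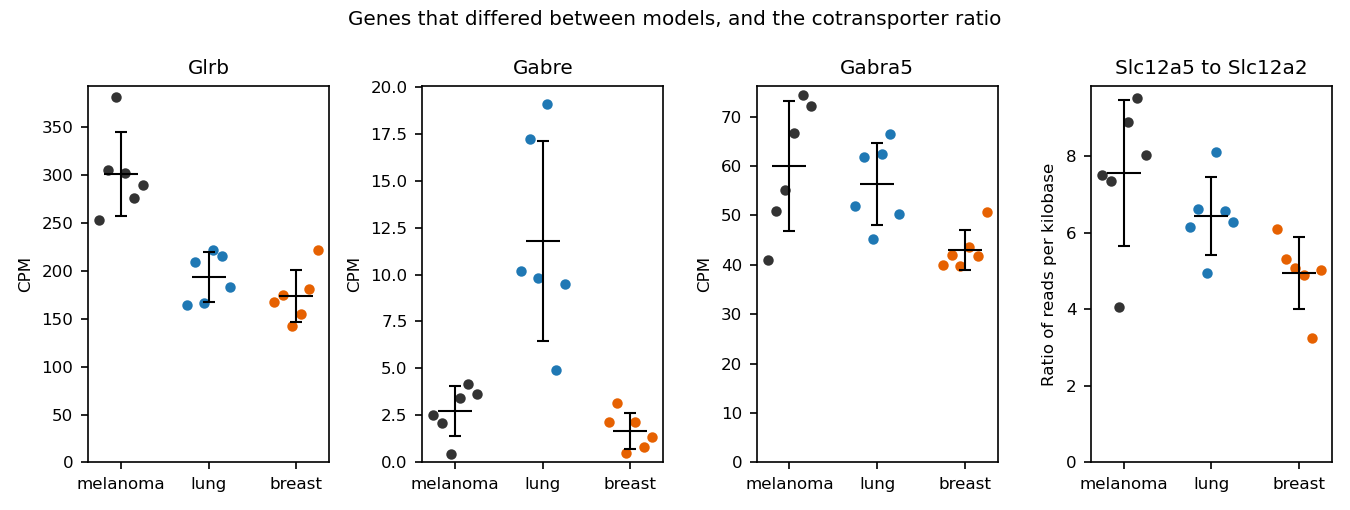
CPM of Glrb, Gabre and Gabra5 and the ratio of Slc12a5 to Slc12a2 reads per kilobase, one point per library in replicate order within each model, with the mean and SD of 6 libraries as bars. Glrb in melanoma (253 to 381 CPM) and Gabre in lung (4.93 to 19.1 CPM) lie apart from the other models, and Gabra5 and the ratio overlap.

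The other GABA-A alpha subunits did not pass edgeR's quasi-likelihood test with all 18 libraries and no covariate. Gabra2, Gabra3 and Gabra4, which form the ligand-binding face of synaptic and extrasynaptic receptors together with beta subunits, had means of 111 ± 35.9, 113 ± 26.0 and 118 ± 25.1 CPM (SD, n = 6) in melanoma. In lung they were 95.5 ± 19, 102 ± 12.8 and 109.6 ± 14 CPM, and in breast 83.3 ± 11, 86.4 ± 11.5 and 105 ± 15.2 CPM. Of the 3, Gabra3 came nearest to the threshold, with a log2 fold change of 0.38 ± 0.14 between melanoma and breast (adjusted p = 0.0556, edgeR's quasi-likelihood test). Gabra3 was called higher there with DESeq2, with limma on the deposited CPM and with 1 surrogate variable as a covariate. Of all genes 14.3%, 11.9% and 18.6% were higher in those fits. Other scalings in edgeR (DESeq2 size factors, upper quartile factors, library totals) and a test on reads recovered from the CPM also called it higher. Gabra6, the alpha subunit of cerebellar granule cells, had 1 read in melanoma, 1 in lung and 3 in breast, at or under the level that 3 reads mark in a single library. Cerebellar marker genes summed to 189 to 314 CPM over the 18 libraries, with Neurod1 unread.

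Among beta subunits, which the channel needs for assembly, Gabrb2 lay at 42.4 to 127 CPM in melanoma, 34.7 to 104 in lung and 30.6 to 78.5 in breast, and Gabrb1 at 22.9 to 124, 46.3 to 118 and 35.5 to 86.5 CPM. Both were widely spread within each model. Neither passed edgeR's quasi-likelihood test between any pair of models with all 18 libraries and no covariate. Gabrb2 had the larger difference, 0.68 ± 0.30 between melanoma and breast (adjusted p = 0.105, edgeR's quasi-likelihood test), and both were called higher there without melanoma replicate 3. DESeq2 and a fit with 1 surrogate variable as a covariate called Gabrb2 higher there too. Gabrb2 was also called higher in melanoma than in lung with the neuron markers as a covariate (0.42 ± 0.14, adjusted p = 0.0209, where 15.4% of all genes were higher) and without the 3 libraries low in long transcripts (0.70 ± 0.26, adjusted p = 0.0497, where 13.6% were). The gamma subunits Gabrg1 and Gabrg3, which take part in the benzodiazepine site of synaptic receptors, lay at 27.2 to 52.9 and at 7.05 to 27.4 CPM over all libraries. Gabrg1 means were 40.1 ± 7.38, 37.7 ± 6.57 and 39.1 ± 10.6 CPM (SD, n = 6) in melanoma, lung and breast, and neither gene passed a test with all 18 libraries. Gabrg3 was called higher in melanoma than in breast without melanoma replicate 3.

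Gabrd, the delta subunit of tonic, extrasynaptic receptors, had means of 60.9 ± 10.6, 54.0 ± 13.1 and 55.6 ± 9.84 CPM (SD, n = 6) in melanoma, lung and breast. Gabrq, the theta subunit, lay at 2.74 to 14 CPM. Neither passed a test with all 18 libraries, and Gabrq was called higher in melanoma than in breast without melanoma replicate 3.

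The GABA-B receptor needs both of its subunits, Gabbr1 to bind GABA and Gabbr2 to couple to G proteins. Gabbr1 lay at 361 to 829.6 CPM in melanoma, 427 to 703 in lung and 357 to 599 in breast. Gabbr2 lay at 49.6 to 306, 104 to 239 and 55.9 to 198 CPM. Neither passed edgeR's quasi-likelihood test with all 18 libraries and no covariate. Log2 fold changes in that test between melanoma and breast were 0.34 ± 0.19 and 0.62 ± 0.36 (adjusted p = 0.195 and 0.217). Both were called higher in melanoma than in breast without melanoma replicate 3. With 1 surrogate variable as a covariate, Gabbr2 was called higher there too. Gabbr2 was the gene with the lowest value relative to the other 5 libraries in breast replicates 18 (log2 -1.43) and 19 (-0.76).

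The glycine receptor alpha subunits did not share the pattern of Glrb. Glra2, the alpha subunit of the developing and adult forebrain, had nearly equal means of 21.2 ± 4.19, 22.0 ± 4.05 and 20.2 ± 3.38 CPM (SD, n = 6) in melanoma, lung and breast. Glra3 means were 15.9 ± 4.97, 15 ± 3.53 and 12.8 ± 1.59 CPM. Glra1, the main alpha subunit of spinal cord and brainstem, was low, at 0.313 to 3.43 CPM in melanoma, 0.386 to 1.99 in lung and 0.789 to 2.05 in breast. None of the 3 passed a test with all 18 libraries. Glra1 was called higher in melanoma than in breast without melanoma replicate 3, and Glra3 without the 3 libraries low in long transcripts (adjusted p = 0.0466).

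Gphn, the gephyrin scaffold that binds Glrb, was the steadiest of the genes, with a coefficient of variation of 7.14% in melanoma, 5.31% in lung and 2.14% in breast. Its means were 90.5 ± 6.47, 80.9 ± 4.30 and 87.7 ± 1.87 CPM (SD, n = 6), and melanoma and lung differed by a log2 fold change of 0.16 ± 0.07 that did not pass (adjusted p = 0.145, edgeR's quasi-likelihood test). With the neuron markers as a covariate that difference was called (0.15 ± 0.06, adjusted p = 0.0377). For comparison, the median coefficient of variation over the genes was 30.9% in melanoma, 20.5% in lung and 17.8% in breast.

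The genes for GABA synthesis, packing and breakdown had the same order of means. Gad1, the decarboxylase of the cell body, had 325 ± 119 CPM (SD, n = 6) in melanoma, 288 ± 43.1 in lung and 233 ± 39.7 in breast. Gad2, the decarboxylase of nerve terminals, had 192 ± 77.5, 174 ± 39.5 and 135 ± 28.3 CPM. Slc32a1, the vesicular transporter, had 126 ± 38.4, 113 ± 21.9 and 101 ± 14.8 CPM, and Abat, the transaminase that degrades GABA, 311 ± 93.7, 283 ± 60.0 and 257 ± 41.4 CPM. None passed edgeR's quasi-likelihood test with all 18 libraries and no covariate, and all 4 were called higher in melanoma than in breast without melanoma replicate 3. Gad1 was called higher there with DESeq2 and with 1 surrogate variable as a covariate. With that covariate Gad1 and Gad2 were also called lower in breast than in lung. In edgeR's test with all libraries and no covariate, the smallest adjusted p was 0.100, for Gad1 between melanoma and breast. Interneuron markers, 14 genes with reads, had a median log2 fold change of 0.18 in that comparison, 2 higher and 1 lower in melanoma.

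Of the membrane transporters, Slc6a11, the astrocytic GABA transporter, lay at 73.3 to 239 CPM in melanoma, 78.2 to 181 in lung and 101 to 188 in breast. Slc6a9, the mainly glial glycine transporter, lay at 36.9 to 65.6, 33.8 to 58.8 and 36.1 to 63.0 CPM. Neither passed edgeR's quasi-likelihood test with all 18 libraries and no covariate. Slc6a11 was called higher in melanoma than in breast without melanoma replicate 3, and Slc6a9 higher in breast than in lung with the neuron markers as a covariate (0.26 ± 0.08, adjusted p = 0.0243, edgeR's quasi-likelihood test). Astrocyte markers summed to 2748 to 4129.9 CPM in melanoma against 4629.9 to 6620.2 in lung and 4556 to 5652 in breast. Slc6a5, the transporter of glycinergic neurons, had 14, 19 and 15 reads in the 6 libraries of melanoma, lung and breast, and hindbrain and spinal cord markers summed to at most 6.03, 0.772 and 10.9 CPM.

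The cotransporters pull chloride in opposite directions. Slc12a5 lay at 136 to 608 CPM in melanoma, 222 to 509.8 in lung and 178 to 425 in breast, and Slc12a2 at 49.1 to 109, 65.7 to 99.2 and 69.9 to 107 CPM. Per kilobase, Slc12a5 exceeded Slc12a2 in all 18 libraries, by a ratio of 4.06 to 9.52 in melanoma, 4.95 to 8.12 in lung and 3.24 to 6.09 in breast. The log2 ratio averaged 2.87 ± 0.44 (SD, n = 6), 2.67 ± 0.23 and 2.28 ± 0.31; it was described and not tested, and the 3 ranges overlapped. Slc12a5 passed no test with all 18 libraries and was called higher in melanoma than in breast without melanoma replicate 3. Slc12a2 was the 1 tested gene with a negative log2 fold change between melanoma and breast, at -0.16 ± 0.17 (adjusted p = 0.496). With the neuron markers as a covariate it was called lower in melanoma than in breast (-0.45 ± 0.09, adjusted p = 6.04e-04; 23.7% of all genes were lower in that fit) and higher in breast than in lung (0.38 ± 0.09, adjusted p = 0.00315; 15.8% of all genes were higher).

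**Figure D3:**
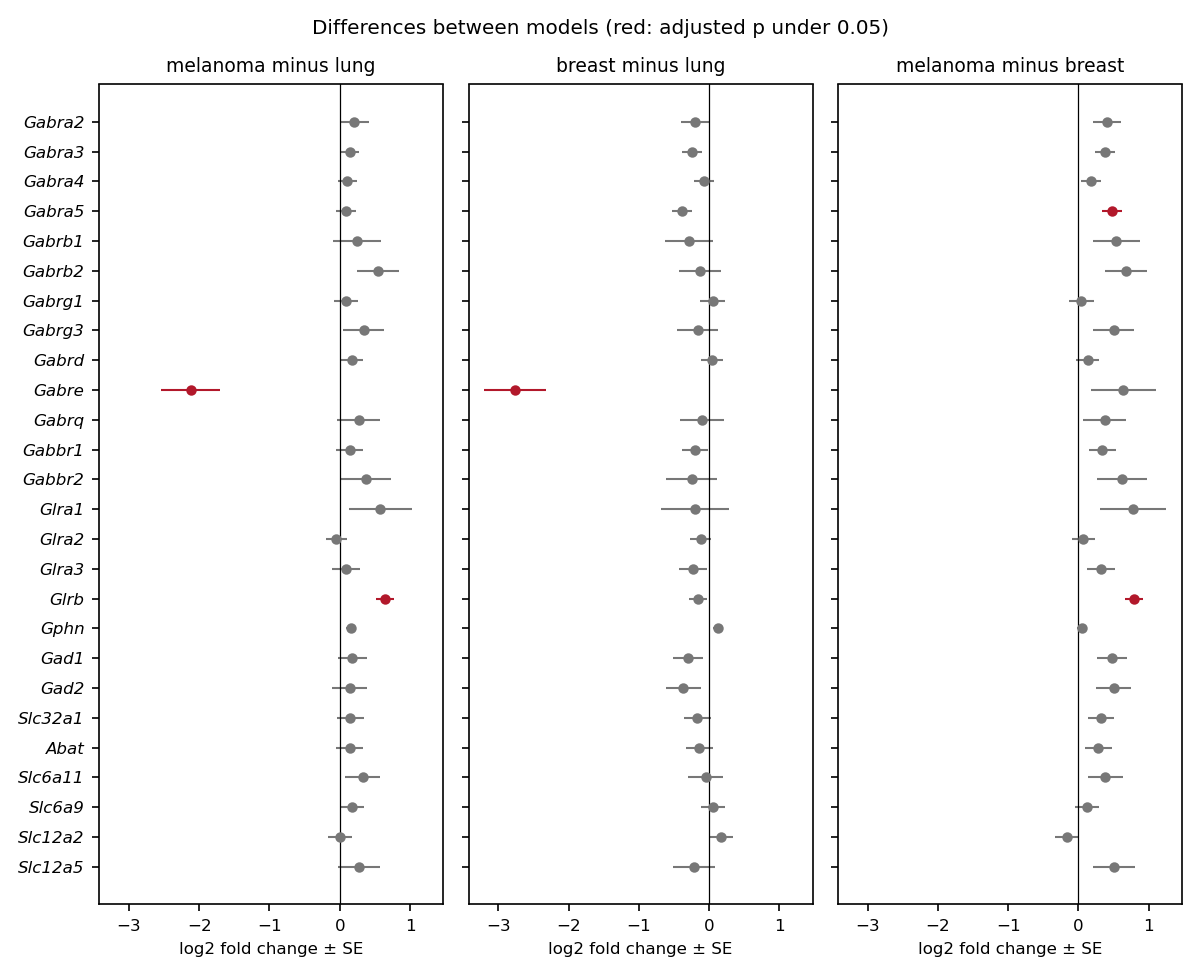
Log2 fold change with its SE for the 26 tested genes in the 3 comparisons, on the same axis, with genes at an adjusted p under 0.05 in red. In the comparison of melanoma with breast 25 of 26 points lie to the right of 0, and Glrb and Gabra5 are red.

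The signs leaned one way in each comparison, and the general neuron markers leaned with them, while lists of neuron subtypes did so less evenly. The median log2 fold change of the 26 genes was 0.17 between melanoma and lung (24 positive, 2 negative), -0.16 between breast and lung (5 positive, 21 negative) and 0.38 between melanoma and breast (25 positive, 1 negative), against 0.02, -0.02 and 0.04 over all genes tested. The 14 tested neuron markers had medians of 0.16, -0.27 and 0.41, of which 0, 0 and 1 were called. The 12 glutamatergic neuron markers had medians of 0.05, -0.30 and 0.44. Medians of the 14 interneuron markers were -0.00, -0.21 and 0.18, and those of the 12 striatal markers -0.06, -0.16 and 0.09. Between melanoma and lung 6 interneuron markers were positive and 8 negative, and 5 striatal markers were positive and 7 negative. With the neuron markers as a covariate, the medians of the inhibitory signalling genes were 0.08 between melanoma and lung, 0.11 between breast and lung and -0.03 between melanoma and breast. With the length slope as a covariate they were -0.07, -0.04 and -0.03. With the neuron markers as a covariate Glrb (0.81 ± 0.12, adjusted p = 1.83e-05) and Gabra5 (0.33 ± 0.12, adjusted p = 0.0291) were still called higher in melanoma, where 15.5% of all genes were. Several of the inhibitory signalling genes are known to be expressed in neurons, and which cells their reads came from was not measured.

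Within a model, the genes moved together from brain to brain. In melanoma, 17 of 26 genes had their lowest value in replicate 3 and 8 in replicate 1, while 12 had their highest in replicate 6 and 11 in replicate 5. In lung, 14 were lowest in replicate 9 and 9 in replicate 7, and 19 were highest in replicate 10. In breast, 14 were lowest in replicate 18, and 10 were highest in replicate 14 and 8 in replicate 15. Relative to the median of the other 5 melanoma brains, replicate 3 was more than 1 log2 unit lower for 13 genes, with Glra1 the lowest at -3.16 and Gabre at -2.87. Glrb (0.40) and Gabrg1 (0.25) were the 2 genes above 0 there. The low replicates had low neuron marker sums, 5849 CPM in melanoma replicate 3 and 5079 CPM in breast replicate 18, each the lowest of its model, and both were among the 3 libraries with low levels of long transcripts. What part the makeup of the tissue and the RNA of these libraries had in the pattern was not tested.

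**Figure D4:**
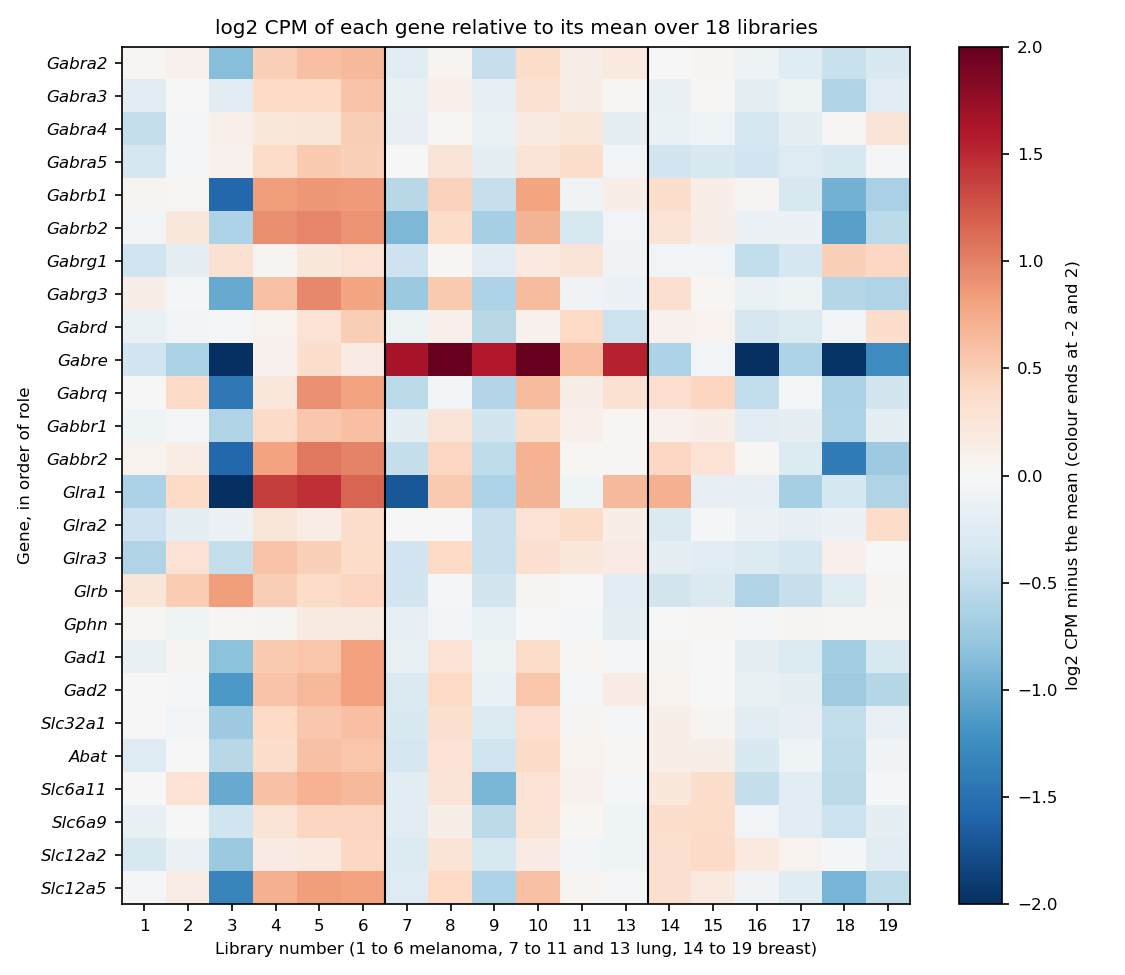
Log2 CPM of the 26 tested genes minus each gene's mean over the 18 libraries, in order of role, with vertical lines between models. Most genes are blue together in melanoma replicate 3 and breast replicate 18 and red together in melanoma replicates 4 to 6 and lung replicate 10. Glrb and Gabrg1 depart from most in melanoma replicate 3, and Gabre is red in every lung library.

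Other genes of the inhibitory pathway, 48 listed and 43 tested, cover rho subunits, glutamine supply, glycine breakdown, further chloride cotransporters and their kinases. Between melanoma and lung 4 were higher and 3 lower in melanoma, between breast and lung 2 were higher and 1 lower in breast, and between melanoma and breast 4 were higher and 3 lower in melanoma. Their median log2 fold changes were 0.13, -0.14 and 0.30. With both directions together, the share called in each comparison was below that of all genes (23.2%, 18.3% and 28.9%). By direction, the 4 of 43 higher in melanoma than in lung were slightly above the 8.51% of all genes. The 4 higher in melanoma than in breast were near the 9.76% of all genes.

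Slc12a4, a potassium-chloride cotransporter of many cell types, lay at 24.1 to 34.9 CPM in melanoma, below 43.0 to 61.2 in lung and 43.1 to 69.2 in breast. It was lower in melanoma by log2 fold changes of -0.90 ± 0.12 against lung (adjusted p = 1.27e-05, edgeR's quasi-likelihood test) and -0.91 ± 0.12 against breast (adjusted p = 8.81e-06). Stk39, the kinase SPAK that phosphorylates these cotransporters, lay at 103 to 122 CPM in melanoma, above 60.7 to 87.5 in lung and 79.4 to 88.6 in breast (0.57 ± 0.09, adjusted p = 6.51e-05, and 0.39 ± 0.09, adjusted p = 0.00212). Neither overlapped between melanoma and the other models.

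Gldc, the decarboxylase of the glycine cleavage system, lay at 40.0 to 55.7 CPM in breast, above 22.6 to 34.7 in lung and 15 to 36.7 in melanoma (0.85 ± 0.19 higher in breast than in lung, adjusted p = 0.00280, and -0.94 ± 0.19 in melanoma against breast, adjusted p = 6.08e-04, edgeR's quasi-likelihood test). Gcsh, the carrier protein of the same system, was lower in melanoma (53.7 to 99.2 CPM) than in breast (102 to 222 CPM), by -1.15 ± 0.20 (adjusted p = 2.05e-04). Shmt2, the mitochondrial enzyme that interconverts serine and glycine, was higher in breast (78.8 to 123 CPM) than in lung (31.9 to 51.6 CPM), by 1.23 ± 0.35 (adjusted p = 0.0188). Slc38a1, a glutamine transporter, was higher in melanoma (178 to 276 CPM) than in lung (93.3 to 174 CPM), by 0.89 ± 0.19 (adjusted p = 0.00116), and Gabrr3, a rho subunit, was lower in melanoma (0.627 to 0.991 CPM) than in lung (1.16 to 2.04 CPM), by -0.97 ± 0.18 (adjusted p = 4.61e-04). The remaining calls, named after their values were seen, were Slc12a7, Shmt2 and Gcsh against lung and Slc12a7, Slc38a1 and Slc6a12 against breast in melanoma, and Gabrr3 in breast against lung; in each of them the libraries of the models overlapped.

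Some of the counts may be shared with neighbouring genes on the opposite strand, since no source used here gives the strand setting of the count table. Exons overlapped such a gene over 27.8% of the exon length of Slc6a9 (Ccdc24) and 24.9% of Slc32a1 (Gm14205), with 29 and 17 reads in all libraries for those neighbours. The overlap was 4.98% for Gabra5 (Gm9962, 684 reads) and 0.756% for Gabra4, which meets Gabrb1 over 46 bases. It was 3.92% for Gphn (Gm48226, 1552 reads) and 5.84% for Glra1 (Gm12236, 7 reads). Slc6a9 also met B4galt2 over 0.895% of its exon length (14993 reads) and Gm17114 over 9.94% (7 reads). Reads of these genes are uncertain to that extent.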

How the data were processed

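Total RNA of the peritumoral tissue was sequenced as directional poly(A)+ libraries, per the labels' protocols. The submitters' processing notes name bcl2fastq and the genome build GRCm39. Which aligner, counter, gene annotation and strandedness were used is not given in the sources used here. Per its values, the deposited count table holds whole-number counts per Ensembl gene in 18 libraries, with no normalization by the authors. The deposited CPM table holds CPM for upper-case symbols on library sizes that the authors scaled. Whole reads were recovered from 100.0% of CPM values in 15366 genes matched by symbol (tolerance 0.01), of which at least 99.77% in each library equalled the counts. A count test on these reads tested 13816 genes and called 3469, 2719 and 4448 between melanoma and lung, breast and lung, and melanoma and breast.

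Symbols and exon lengths came from GENCODE M21 by gene ID; 52083 of 55416 IDs (94.0%, with 99.8% of reads) had a symbol. Upstream sequences came from RefSeq (GRCm38.p6), which held 24 of the 28 genes. Libraries were grouped by the labelled tumour line. Counts were fitted in edgeR 4.0.16 (R 4.3.3) with TMM factors (0.973 to 1.03), filterByExpr (17174 genes) and the robust quasi-likelihood test, 1 coefficient per model over 18 libraries, Benjamini-Hochberg adjusted over all genes tested. CPM are on TMM-scaled library sizes. Alternatives used DESeq2 1.42.0, limma 3.58.1 and sva 3.50.0, other scalings and filters, a test against 1.5-fold, covariates, and each library left out. The procedure was tested on simulated data. Counting limits cover counting error only. All 28 genes are named; of the other pathway genes, at most 5 per comparison were named, those with the smallest adjusted p whose mean over 18 libraries reached 1 CPM and whose models did not overlap. The genes and lists were chosen with earlier results of these data known.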

Additional observations from a re-analysis of the deposited data

Results flagged for a closer look

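In groups of 6 libraries, 5 of 81 gene or ratio groups had a highest or lowest library whose gap to the nearest other was above the critical share of the group's range in Dixon's test; chance alone picks about 1 in 20 groups. Gabra5 was 50.6 CPM in breast replicate 19, with the next highest at 43.5 CPM. Glra2 was 26.8 CPM in the same library, with the next at 20.5 CPM. Glra1 was 2.05 CPM in breast replicate 14, with the next at 1.12 CPM. The log2 ratio of Slc12a5 to Slc12a2 was 2.02 in melanoma replicate 3, with the next lowest at 2.88, and 1.70 in breast replicate 18, with the next at 2.29. Without these libraries the mean log2 ratio was 3.04 in melanoma and 2.40 in breast.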

How the results depend on the processing

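The 5 called changes of Glrb, Gabre and Gabra5 kept their direction under every alternative run, and passed in all of them except the test against 1.5-fold, which ended the calls of Glrb and Gabra5. The number of genes higher in melanoma than in lung, 1 as reported, was 2 with DESeq2 and with limma on the deposited CPM, 0 against 1.5-fold, 3 with the neuron marker covariate or 1 surrogate variable, and 1 to 2 with each library left out, where the gene gained was Gphn with DESeq2, limma or melanoma replicate 4 left out, and Gphn and Gabrb2 with either covariate. Of all genes, 12.3% were higher in melanoma than in lung with DESeq2 and 9.68% with limma on the deposited CPM. That share was 2.53% against 1.5-fold, 15.4% with the neuron marker covariate and 17.7% with 1 surrogate variable. The number higher in breast than in lung, 0 as reported, was 2 with the neuron marker covariate and 1 with 1 surrogate variable. Of all genes 15.8% and 19.2% were higher in those fits. The number lower in breast than in lung, 1 as reported, was 2 with library totals without factors, with DESeq2 and with only the 12 libraries of both models, 4 with 1 surrogate variable, and 1 to 2 with each library left out. It was 2 without melanoma replicate 1, 3, 5 or 6, lung replicate 9 or breast replicate 19. The gene gained was Gabra5 in each of these fits, joined by Gad1 and Gad2 with 1 surrogate variable. Lower in breast than in lung were 7.65% of all genes with library totals and 8.55% with DESeq2. The share was 11% with only the 12 libraries and 15.4% with 1 surrogate variable. The number higher in melanoma than in breast, 2 as reported, was 5 with DESeq2, 0 against 1.5-fold, 6 with 1 surrogate variable, and 2 to 17 with each library left out, 17 without melanoma replicate 3. It was 3, with Gabra3 gained, with DESeq2 size factors or upper quartile factors in edgeR, library totals, or limma on the deposited CPM. Of all genes 12.2%, 12.2%, 10.2% and 11.9% were higher in those fits. Higher in melanoma than in breast were 14.3% of all genes with DESeq2 and 2.46% against 1.5-fold. They were 18.6% with 1 surrogate variable and 23.2% without melanoma replicate 3. The number lower in melanoma than in breast, 0 as reported, was 1 with the neuron marker covariate or 1 surrogate variable. Of all genes 23.7% and 26.3% were lower in those fits. The number differing over the 3 models, 3 as reported, was 5 with DESeq2, 6 with the neuron marker covariate, 10 with 1 surrogate variable, and 2 to 14 with each library left out, 14 without melanoma replicate 3 and 2 without breast replicate 14 or 16. Over the 3 models 41.6% of all genes differed with DESeq2, 51.4% with the neuron marker covariate and 58.3% with 1 surrogate variable. Without melanoma replicate 3 it was 50.3%, without breast replicate 14 35.7% and without breast replicate 16 32.7%. A set of alternatives was added after seeing the data. One left out melanoma replicate 3 and breast replicates 18 and 19, which gave 2 higher in melanoma than in lung (Glrb and Gabrb2), 3 lower in breast than in lung, 7 higher in melanoma than in breast and 5 over the 3 models. Without those 3 libraries 13.6% of all genes were higher in melanoma than in lung and 13.3% lower in breast than in lung. Over the 3 models 48.1% differed. With the length slope as a covariate, 1 was higher (Slc12a2) and 2 were lower (Gabra5 and Gabre) in breast than in lung. With that covariate 1 was lower in melanoma than in breast (Slc12a2). Of all genes 18.2%, 14% and 25.1% were called in these directions, in the same order. On reads recovered from the CPM, 2 were lower in breast than in lung, where 9.33% of all genes were. On the same reads 3 were higher in melanoma than in breast, where 13.9% of all genes were. The cause was not tested. None of 588 recomputed levels moved by 1 SD or more. No paired analysis was possible because the models share no library numbers. With 6 brains per model and a median coefficient of variation of 30.9% in melanoma, small differences may not have been detectable, and Gabra6, Slc6a5 and Gabre rest on few reads.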
